A study of Arabidopsis thaliana with 27 samples.

Results

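The 43 genes described here encode the nuclear part of the light-harvesting antenna and of both photosystems of Arabidopsis thaliana. They were chosen by locus from the 32678 genes listed in every count table. The antenna makes up 21 of them (LHCA1 to LHCA6 and 15 LHCB copies), photosystem I subunits from PSAD to PSAO make up 12, and photosystem II subunits from PSBO to PSBY make up 10. RNA came from whole seedlings grown for about a week on MS medium at 22 °C, with 8 h of light and 16 h of darkness a day. Wild type Col-0, the vil1-1 mutant, the cop1-4 mutant and the line carrying both mutations, vil1-1cop1-4, were sampled at ZT0 and at ZT6, and the hy5-215 mutant at ZT0 alone. ZT counts hours from lights on, so ZT0 ends the night and ZT6 lies in the light. Each of the 9 groups held 3 libraries, 27 in all. VIL1 is a PHD-finger partner of Polycomb repressive complex 2, COP1 is a ubiquitin ligase that removes light-signalling factors in the dark, and HY5 is a bZIP transcription factor among its targets. All groups shared the light regime, and the hy5-215 mutation stood in a single line.

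Chlorophyll-binding LHCB proteins gather light around photosystem II, and LHCA proteins do so around photosystem I. Photosystem II takes electrons from water at a manganese cluster held by lumenal subunits, and photosystem I passes them to ferredoxin on the stromal side. The reaction centre cores are encoded in the chloroplast, whereas the antenna and most peripheral subunits are nuclear genes known in seedlings for their response to light and to the time of day.

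The libraries held 19.7 to 33.6 M reads in genes (median 23 M). All 43 genes were among the 21448 kept for testing, and the smallest sum of reads for any of them in a group was 180 (LHCB4.3 in Col-0 at ZT0). Levels are CPM, the reads of a gene per 1e+06 reads in genes, on library sizes scaled by TMM, a method that sets aside the most changed genes. VIL1 was read at 16 to 16.7 CPM in Col-0 at ZT0 and at 4.79 to 5.48 CPM in vil1-1, and its groups did not overlap at either time. COP1 and HY5 transcripts were still read in their mutants (47.8 ± 3.34 CPM for COP1 in cop1-4 at ZT0, 14.5 ± 0.111 CPM for HY5 in hy5-215, SD, n = 3), so they do not test those labels. The hy5-215 libraries stood apart: 2.16 to 2.89% of their reads lay outside genes, against 0.586 to 1.12% in the 24 others. No label names a batch, and hy5-215 sample titles have another form, so batch and genotype cannot be told apart there. The labels number the replicates without saying that they were grown apart, and the p-values therefore reflect a spread among libraries that may be technical only. In whole seedlings, fewer cells of a type and less RNA per cell cannot be told apart.

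The results below turn most on the 5 LHCB1 copies, on LHCB4.3 and on PSBQ2, and the 250 bases before the annotated start of each gene are shown for this reason. Coordinates are those of RefSeq's TAIR10.1 and each sequence reads 5′ to 3′ on the gene's strand. Capitals mark the motifs searched on both strands: CCAAT, the G-box CACGTG, the I-box GATAAG, the CCA1 binding site AAAAATCT, the evening element AAAATATCT and the TATA box TATAAA. LHCB1.1 to LHCB1.3 are neighbours on chromosome 1 and LHCB1.4 and LHCB1.5 on chromosome 2. The coding sequences of LHCB1.1, LHCB1.2 and LHCB1.3 were 95.6 to 96.4% identical and those of LHCB1.4 and LHCB1.5 91.4%, whereas the windows before their starts were 43.5 to 49.6% and 46.7% identical. The windows of LHCB1.1 and LHCB1.5, on different chromosomes, were 55.4% identical.
LHCB1.1 (AT1G29920), chr1:10475970-10476219, minus strand: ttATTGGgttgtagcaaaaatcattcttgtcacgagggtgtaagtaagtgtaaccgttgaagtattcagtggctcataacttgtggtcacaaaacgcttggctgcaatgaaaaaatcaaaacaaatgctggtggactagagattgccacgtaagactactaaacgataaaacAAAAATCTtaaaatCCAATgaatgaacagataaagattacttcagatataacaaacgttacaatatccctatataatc
LHCB1.2 (AT1G29910), chr1:10473503-10473752, minus strand: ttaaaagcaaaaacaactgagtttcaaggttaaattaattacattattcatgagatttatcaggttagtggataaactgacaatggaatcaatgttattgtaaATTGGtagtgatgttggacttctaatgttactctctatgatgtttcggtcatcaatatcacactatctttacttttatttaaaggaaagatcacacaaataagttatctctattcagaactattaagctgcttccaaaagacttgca
LHCB1.3 (AT1G29930), chr1:10477635-10477884, plus strand: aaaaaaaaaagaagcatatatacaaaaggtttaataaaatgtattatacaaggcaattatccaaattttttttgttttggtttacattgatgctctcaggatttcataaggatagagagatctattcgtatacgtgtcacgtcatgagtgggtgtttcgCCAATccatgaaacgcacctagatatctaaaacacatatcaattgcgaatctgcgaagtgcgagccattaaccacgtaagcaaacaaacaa
LHCB1.4 (AT2G34430), chr2:14524357-14524606, plus strand: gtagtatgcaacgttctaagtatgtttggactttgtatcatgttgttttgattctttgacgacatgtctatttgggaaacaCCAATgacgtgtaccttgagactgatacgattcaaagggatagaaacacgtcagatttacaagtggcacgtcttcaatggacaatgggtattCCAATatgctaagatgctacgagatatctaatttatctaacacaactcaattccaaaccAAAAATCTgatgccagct
LHCB1.5 (AT2G34420), chr2:14523569-14523818, minus strand: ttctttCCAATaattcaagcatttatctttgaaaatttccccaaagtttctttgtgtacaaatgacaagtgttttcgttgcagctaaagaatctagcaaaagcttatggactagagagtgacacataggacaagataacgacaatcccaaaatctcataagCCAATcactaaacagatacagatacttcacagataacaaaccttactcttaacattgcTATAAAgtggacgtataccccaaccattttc
LHCB4.3 (AT2G40100), chr2:16745378-16745627, plus strand: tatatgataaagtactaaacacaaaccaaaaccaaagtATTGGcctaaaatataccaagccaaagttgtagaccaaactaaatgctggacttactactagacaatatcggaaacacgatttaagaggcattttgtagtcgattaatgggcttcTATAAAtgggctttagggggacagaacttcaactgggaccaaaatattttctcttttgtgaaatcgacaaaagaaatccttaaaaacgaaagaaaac
PSBQ2 (AT4G05180), chr4:2673244-2673493, minus strand: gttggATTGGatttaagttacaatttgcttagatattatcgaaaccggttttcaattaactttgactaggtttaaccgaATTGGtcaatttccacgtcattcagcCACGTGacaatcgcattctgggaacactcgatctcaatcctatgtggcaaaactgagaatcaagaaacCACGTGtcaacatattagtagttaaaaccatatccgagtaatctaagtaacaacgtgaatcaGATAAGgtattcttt

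CCAAT was found before 19 of 21 antenna genes (90.5%), 7 of 12 photosystem I genes (58.3%) and 2 of 10 photosystem II genes (20%). Of 27443 windows of the same length before annotated protein-coding nuclear genes 46% held it. PSBQ2 and PSBX were the photosystem II genes with CCAAT. PSBQ2 and its paralog PSBQ1 each held 2 G-boxes, and PSBQ2 held 1 I-box. G-boxes stood before 9 of the 43 genes (20.9%, beside 6.49% of all windows) and I-boxes before 9 (20.9%, beside 12.3%). The CCA1 site stood before 5 (11.6%, beside 6.69%), LHCB1.1 and LHCB1.4 among them, and the evening element before LHCA5 (2.33% of the genes, beside 2.36%). TATA boxes stood before 19 (44.2%, beside 47.3%). A match to these letters is a description of the window and not evidence of binding.

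Per kilobase of transcript, LHCB1.3, a subunit of the major trimeric antenna of photosystem II, was the most abundant of the 43 in Col-0 at ZT0, at 13200 ± 496 CPM per kb (SD, n = 3). LHCB1.5 followed at 4790 ± 130 and LHCB1.1 at 4230 ± 139 CPM per kb. The first photosystem subunits in this order were PSBR, a small subunit near the water-splitting site, at 2240 ± 196, and PSBO1, which steadies the manganese cluster, at 2150 ± 66.7 CPM per kb, and this pair did not differ beyond its spread. Photosystem I was led by PSAG, a subunit at the antenna side, at 1490 ± 60.7 CPM per kb. The 4 lowest were all antenna genes: LHCA5 at 87.5 ± 6.12 and LHCA6 at 45.2 ± 0.856, which join photosystem I to the NDH complex, then LHCB7 at 13 ± 0.174 and LHCB4.3 at 1.79 ± 0.401 CPM per kb. The 5 LHCB1 copies together gave 30100 ± 940 CPM, or 40.2% of the summed CPM of the 43 genes. All 43 genes together took 8.83% of the reads in genes in Col-0 at ZT0, and 5 of the 10 genes with the most reads there were among them.

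From ZT0 to ZT6 in Col-0 the photosystem subunits rose together, and the LHCB copies split. By edgeR's quasi-likelihood test with Benjamini-Hochberg adjustment at 0.05, all 12 photosystem I and all 10 photosystem II genes rose, with median log2 changes of 0.67 and 0.65, as did all 6 LHCA genes (median 0.79). Of 15 LHCB copies 8 rose and 5 fell. In all 41 of the 43 were called (36 higher, 5 lower), beside 70.9% of all genes tested (36.9% higher, 34% lower), whose median was 0.02.

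LHCA1 (AT3G54890), in the photosystem I antenna belt, was read at 1450, 1440 and 1460 CPM at ZT0 and at 4050, 4030 and 3860 at ZT6. All ZT6 libraries lay above all ZT0 libraries, a log2 change of 1.46 (SE 0.06, adjusted p = 1.5e-23). PSAD1, which docks ferredoxin, went from 769, 721 and 707 CPM to 1850, 1890 and 1760, with no overlap and a log2 change of 1.32 (SE 0.07, adjusted p = 3.1e-21). PSAO, at the side of photosystem I where mobile antenna binds, rose by 1.29 on the log2 scale. Among photosystem II subunits the change was largest for the small membrane subunit PSBX (0.92, SE 0.06, adjusted p = 4.1e-18) and smallest for PSBO1 (0.22, SE 0.06, adjusted p = 0.00066).

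The LHCB1 copies moved in different ways through the day. LHCB1.2 was read at 1760, 1870 and 1770 CPM at ZT0 and at 6140, 6170 and 6080 at ZT6, the largest rise of the 43 (log2 change 1.77, SE 0.12, adjusted p = 2.8e-11). LHCB1.1, its neighbour, went from 5570, 5720 and 5360 CPM down to 3720, 3670 and 3470 (log2 change -0.62, SE 0.12, adjusted p = 9e-05). In both genes the times did not overlap, and the directions were opposite. LHCB1.3 was read at 15900, 16900 and 15800 CPM and then at 16200, 14900 and 15100, with overlap and no call (log2 change -0.07, adjusted p = 0.35). With the counts of LHCB1.1 to LHCB1.3 summed before the fit, the change was 0.09 (adjusted p = 0.25). The share of LHCB1.2 in the summed CPM of the 5 copies went from 5.97 to 17.1%.

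The other copies that fell in Col-0 were LHCB2.1, LHCB2.3, LHCB4.2 and LHCB7. LHCB2 proteins share the major trimer with LHCB1 and are phosphorylated when antenna moves between photosystems. LHCB2.3 was read at 612, 610 and 604 CPM at ZT0 and at 344, 377 and 354 at ZT6 (log2 change -0.77, SE 0.13, adjusted p = 3.7e-05). LHCB4 is the monomeric antenna protein CP29, and its copy LHCB4.2 went from 2150, 2150 and 2070 CPM to 1360, 1290 and 1250 (log2 change -0.71, SE 0.07, adjusted p = 3e-11), whereas LHCB4.1 went from 2020, 1990 and 1970 to 3670, 3540 and 3540 (0.85, SE 0.06, adjusted p = 1.1e-16). The groups of both copies lay apart, in opposite directions. LHCB2.1 changed by -0.42 and LHCB7, a rarely expressed antenna protein, by -0.49 on the log2 scale.

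**Figure D1:**
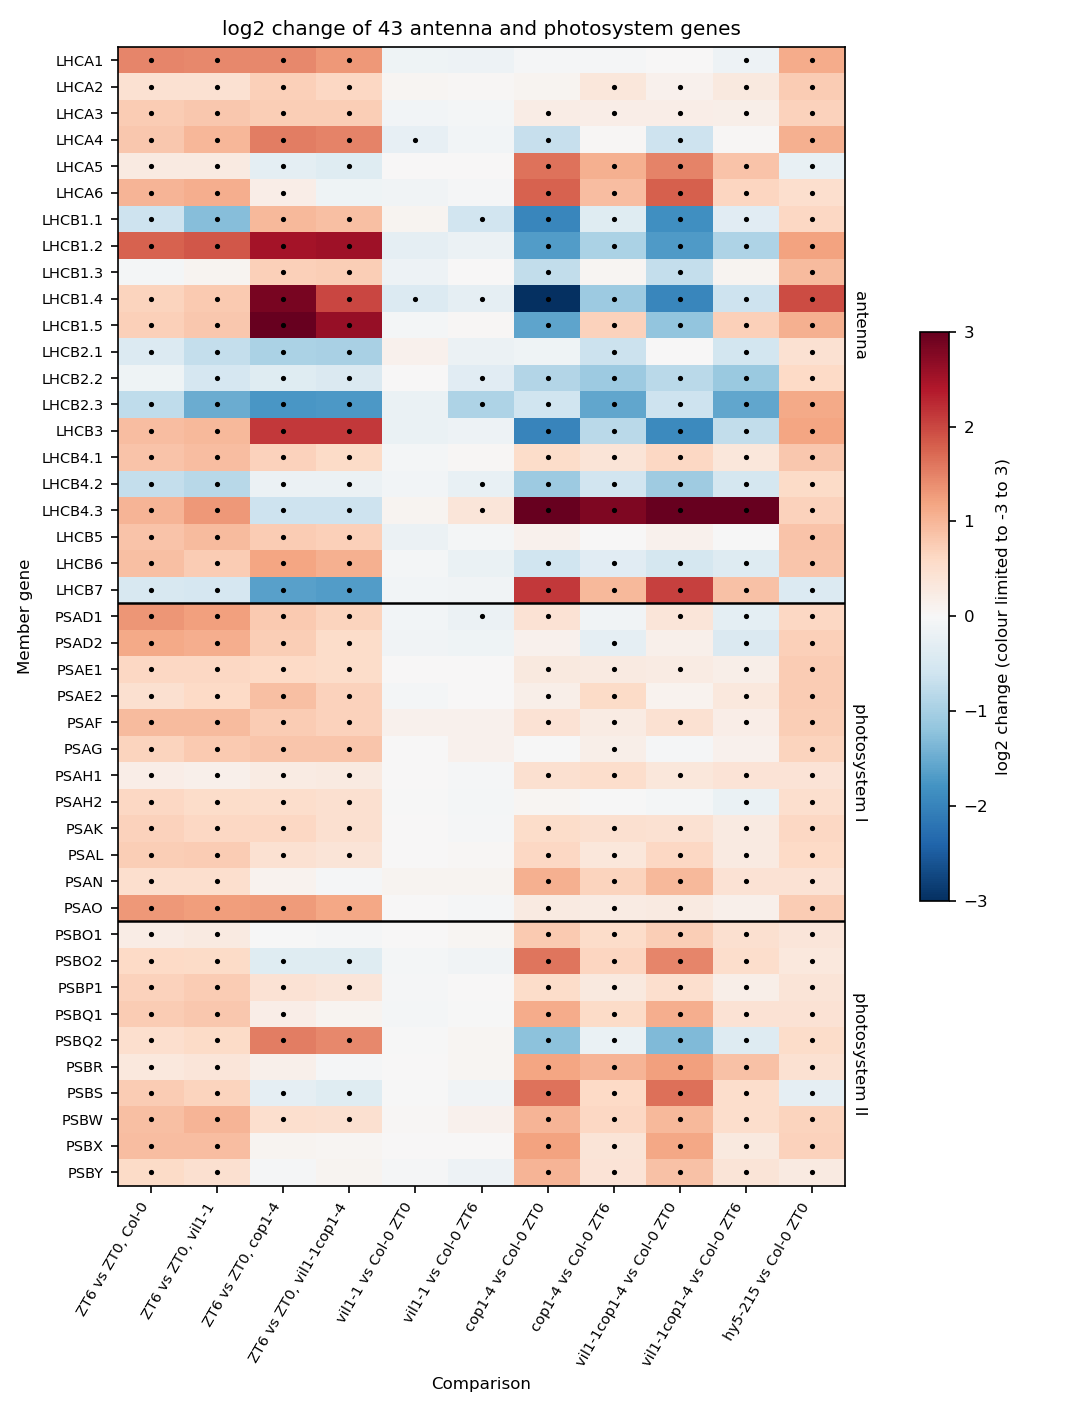
log2 changes of the 43 genes (rows, grouped by class) in 11 comparisons (columns). Red is higher in the first-named group, blue lower, and a black dot marks a call at an adjusted p under 0.05; LHCB4.3 and LHCB1.4 reach beyond or close to the colour limits in cop1-4 at ZT0, at 4.41 and -3.25.

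At the end of the night cop1-4 held less RNA of most major antenna copies and more of most photosystem II subunits than Col-0. Of 15 LHCB copies 10 were lower and 3 higher (median log2 change -0.74), whereas 9 of 10 photosystem II genes were higher and 1 lower (median 1.07), with 8 of the 10 past 2-fold. Photosystem I genes lay between, with 9 of 12 higher, none lower and a median of 0.36, and LHCA genes had 3 higher and 1 lower of 6 (median 0.16). In all 36 of the 43 were called (24 higher, 12 lower), beside 68.5% of all genes tested (34.7% higher, 33.9% lower; median 0), so the share called was not far above the background, and the direction by class is what is described. All comparisons with Col-0 at one time share its 3 libraries.

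LHCB1.4 changed most in the lower direction: 1500, 1590 and 1620 CPM in Col-0 against 153, 175 and 167 in cop1-4 (9.53-fold lower, log2 change -3.25, SE 0.11, adjusted p = 5.7e-18). LHCB3 (AT5G54270), which joins LHCB1 and LHCB2 in antenna trimers, was read at 1920, 1930 and 1930 CPM against 423, 518 and 525 (log2 change -1.98, SE 0.09, adjusted p = 9.4e-17). The lines did not overlap in either gene, and the same held for the 4 other LHCB1 copies, whose log2 changes were -1.96 for LHCB1.1, -1.67 for LHCB1.2, -1.59 for LHCB1.5 and -0.74 for LHCB1.3. Summed, the LHCB1 copies fell from 30100 ± 940 CPM to 13500 ± 1800 (SD, n = 3), and LHCB1.3 rose from 53.8 to 71.9% of that sum. LHCB4.2 (-1.09), LHCB2.2 (-0.87), LHCB2.3 (-0.59) and LHCB6, the monomeric CP24 (-0.59), were also lower. LHCB5, the monomeric CP26, was not called (0.12, adjusted p = 0.11).

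The rare antenna members went the other way. LHCB4.3, a CP29 copy known from high-light acclimation, was read at 2.62, 2.71 and 1.75 CPM in Col-0 and at 41.2, 54.1 and 54.3 in cop1-4 (21.3-fold, log2 change 4.41, SE 0.12, adjusted p = 6.3e-31). LHCB7 was read at 15.8, 15.6 and 16 CPM against 65.6, 69.1 and 70.6 (log2 change 2.12, SE 0.07, adjusted p = 2.8e-27). LHCA6 (53.5, 52.6 and 51.5 against 160, 188 and 186 CPM) and LHCA5 (92.5, 83.6 and 81.1 against 251, 283 and 258 CPM) were higher by 1.76 and 1.62 on the log2 scale. In all 4 genes every cop1-4 library lay above every Col-0 library. LHCB4.1 (0.56) and LHCA3 (0.22) were the other antenna genes that were higher, LHCA3 not without replicate 2 of cop1-4 (0.13, adjusted p = 0.098), and LHCA4, a main photosystem I antenna protein, was lower (-0.68, SE 0.07, adjusted p = 2.2e-11). Without LHCA5, LHCA6, LHCB4.3 and LHCB7, the antenna had 2 higher and 11 lower of 17 (median -0.68).

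Photosystem II was led by PSBS (AT1G44575), the sensor that turns on dissipation of excess light, at 737, 700 and 667 CPM in Col-0 and 2020, 2260 and 2260 in cop1-4 (log2 change 1.64, SE 0.06, adjusted p = 1e-25). PSBO2 (AT3G50820), the second copy of the manganese-stabilising protein, was read at 759, 699 and 672 CPM against 1970, 2270 and 2220 (1.60, SE 0.06, adjusted p = 2.5e-25), and PSBO1 changed by 0.78. PSBQ2 moved against its class. This copy of an extrinsic protein of the water-splitting complex was read at 854, 834 and 792 CPM in Col-0 and at 293, 380 and 376 in cop1-4 (log2 change -1.24, SE 0.08, adjusted p = 3.2e-15). Its paralog PSBQ1 was read at 689, 661 and 626 CPM against 1240, 1530 and 1510 (1.11, SE 0.06, adjusted p = 1.9e-19). Both copies separated the lines fully, in opposite directions. PSBX (1.21), PSBR (1.18), PSBW, a small subunit of the antenna supercomplex (1.03), PSBY (1.01) and the extrinsic PSBP1 (0.56) made up the rest.

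In photosystem I the change was largest for PSAN, a lumenal subunit at the plastocyanin docking site, at 791, 803 and 714 CPM in Col-0 and 1430, 1720 and 1670 in cop1-4 (log2 change 1.06, SE 0.07, adjusted p = 1.8e-18). Every cop1-4 library was above every Col-0 library, and PSAL, where mobile antenna docks, changed by 0.62. The other called photosystem I genes changed by 0.17 to 0.55. Without replicate 2 or 3 of cop1-4, PSAE2 (adjusted p = 0.25 and 0.33) and PSAO (0.071 and 0.092) lost their calls, and PSAE2 did so without replicate 3 of Col-0 as well (0.054). These small values also depend on the scaling of the libraries. The TMM factor was 0.77 to 0.813 in cop1-4 and 1.16 to 1.19 in Col-0 at ZT0. The 10 genes with the most reads took 9.97 to 10.8% of the reads in genes in cop1-4 against 6.73 to 6.95% in Col-0. Scaled by total reads instead, the median of all genes moved by -0.58, the photosystem I median became -0.22 and the photosystem II median 0.49, and 10 of the 36 called genes changed sign: LHCA3, LHCB4.1, PSAD1, PSAE1, PSAE2, PSAF, PSAH1, PSAK, PSAO and PSBP1. PSAL was then not called (0.04, adjusted p = 0.44).

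**Figure D2:**
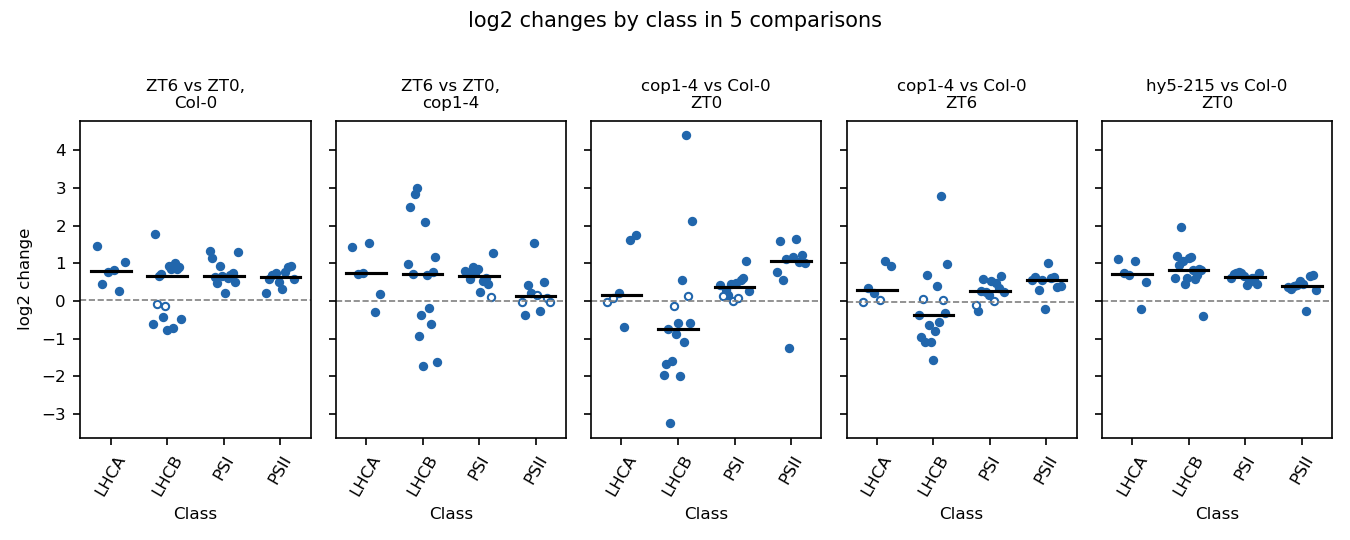
log2 changes (vertical axis) by class in 5 comparisons. Each point is 1 gene, filled where it was called, the black bars are class medians and the dashed lines the median of all genes tested; in cop1-4 at ZT0 the LHCB and photosystem II medians are -0.74 and 1.07, and in hy5-215 all 4 medians lie above 0.

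Markers of other tissues moved with cop1-4 too, where 34.7% of all genes tested were higher and 33.9% lower at ZT0. All 7 genes of a list of green-tissue genes outside the 43 (Rubisco activase and Calvin cycle enzymes among them) were higher in cop1-4 at ZT0, with a median of 1.76, and together they took 7.05 ± 0.268% of the reads in genes against 2.78 ± 0.0413% in Col-0 (SD, n = 3). Of 8 root genes 6 were lower and none higher (median -1.18), and their share was 0.0985% against 0.297%. The nitrate transporter NRT2.1 of that list was at 0 in cop1-4 at ZT0. In the same libraries most LHCB copies were lower and most photosystem II genes higher. The part of these lists in the changes of the 43 genes was not tested.

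At ZT6 the LHCB and photosystem II medians of cop1-4 lay nearer 0 than at ZT0, with the same signs. In cop1-4 against Col-0 37 of the 43 were called (26 higher, 11 lower), beside 66.6% of all genes tested (32.6% higher, 34% lower). LHCB copies had 9 lower and 4 higher of 15 (median -0.37), photosystem II genes 9 higher and 1 lower of 10 (0.56), photosystem I genes 9 higher and 1 lower of 12 (0.26), and LHCA genes 4 higher and none lower of 6 (0.28), against a median of -0.02 for all genes. PSAD2 (-0.27) and PSBQ2 (-0.21) were the photosystem genes that were lower. The PSBQ2 call was lost with RLE size factors and with DESeq2 (adjusted p = 0.080 and 0.077), without replicate 1 of Col-0 (0.056) and without replicate 1 or 2 of cop1-4 (log2 change -0.12 and -0.15, adjusted p = 0.23 and 0.15). All 7 green-tissue genes were higher in cop1-4 at ZT6 too (median 0.96) and 6 of 8 root genes lower (-0.81), and their part was not tested. Scaling by total reads moved the median of all genes by -0.25 and turned the sign of LHCA3 and PSAG among the called genes. The photosystem I median became 0.01 and the photosystem II median 0.31. PSAE1 (0.01), PSAF (0.01), PSAL (0.09), PSAO (0) and PSBP1 (0.04) were then no longer called.

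LHCB1.5 stood above Col-0 at ZT6 after lying below it at ZT0. It was read at 8550, 7690 and 8400 CPM in Col-0 at ZT6 and at 12200, 14400 and 13200 in cop1-4 (log2 change 0.69, SE 0.07, adjusted p = 5.2e-12). At ZT0 the values were 4860, 5130 and 5040 in Col-0 and 1430, 1780 and 1760 in cop1-4. The lines were apart at both times, in opposite order. LHCB2.3 was further below Col-0 at ZT6 than at ZT0, at 344, 377 and 354 CPM against 119, 110 and 135 (log2 change -1.56, SE 0.14, adjusted p = 5.1e-09). LHCB4.3 was still higher in cop1-4 (4.49, 5.35 and 4.46 against 33.5, 32.7 and 32.3 CPM, log2 change 2.8, SE 0.10, adjusted p = 7.2e-25), as were LHCA5 (1.06), PSBR (1.02), LHCB7 (0.97) and LHCA6 (0.92).

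Within cop1-4, 38 of the 43 changed from ZT0 to ZT6 (29 higher, 9 lower), beside 63.5% of all genes tested (30.2% higher, 33.4% lower; median -0.01). LHCB1.5 rose 8-fold, from 1430, 1780 and 1760 CPM to 12200, 14400 and 13200 (log2 change 3, SE 0.07, adjusted p = 9.5e-33). LHCB1.4 rose from 153, 175 and 167 CPM to 951, 1410 and 1180 (2.84, SE 0.11, adjusted p = 7.6e-17), LHCB1.2 by 2.49 and LHCB3 by 2.11. LHCB1.1, which fell in Col-0, rose in cop1-4, from 1090, 1550 and 1640 CPM to 2840, 2700 and 2870 (0.98, SE 0.12, adjusted p = 3.2e-07). PSBQ2 rose from 293, 380 and 376 CPM to 966, 1000 and 1090 (1.54, SE 0.08, adjusted p = 1.5e-17). In each of these genes the times lay apart. Of the remaining photosystem II genes 3 rose, PSBO2 (-0.37) and PSBS (-0.27) fell, and 4 were not called (class median 0.12), whereas 11 of 12 photosystem I genes rose (0.67). Scaling by total reads moved the median of all genes by 0.22 in this comparison and turned the sign of LHCB4.2 among the called genes. With it the photosystem II median was 0.36, PSBS was no longer called (-0.03, adjusted p = 0.61) and PSBO1 was called higher (0.22). Without 1 library in turn PSBS ranged from -0.27 to -0.17 and the photosystem II median from 0.10 to 0.25. The median was 0.20 and 0.25 without replicates 2 and 3 of cop1-4 at ZT0 and 0.24 without replicate 1 at ZT6, and PSBS was weakest, at -0.18, -0.18 and -0.17, without replicates 2 and 3 at ZT0 and replicate 2 at ZT6. All 7 green-tissue genes fell in cop1-4 through the day (median -0.86), from 7.05 to 4.27% of the reads in genes, and 6 of 8 root genes rose (0.84), whereas in Col-0 3 green-tissue genes rose and 3 fell. Their part was not tested.

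The daytime change itself differed between cop1-4 and Col-0 in 30 of the 43 by the interaction term of the same edgeR fit (12 with a higher value in cop1-4, 18 with a lower), beside 46.6% of all genes tested (20.9% higher, 25.8% lower). LHCB copies had 8 higher and 4 lower of 15 (median 0.26), and photosystem II genes 1 higher and 8 lower of 10 (-0.47, or -0.14 with scaling by total reads), with all genes at -0.02. The largest differences were 2.29 for LHCB1.5 (SE 0.10, adjusted p = 1.2e-22), 2.17 for LHCB1.4 (SE 0.14, adjusted p = 1.3e-11) and 1.59 for LHCB1.1 (SE 0.17, adjusted p = 8.1e-08). PSBS (-1.04), PSBO2 (-0.96) and PSBX (-0.83) led the lower side of photosystem II, and PSBQ2 (1.03) was the gene on the other side. LHCB4.3 (-1.61), LHCB7 (-1.14) and LHCA6 (-0.84) led the lower side of the antenna. Scaling by total reads moved the median of all genes by 0.32 and turned the sign of this difference for PSAL, PSBO1 and PSBP1. PSBO1 (-0.24) and PSBP1 (-0.27) also lost their calls with RLE size factors (adjusted p = 0.10 and 0.069) and DESeq2 (0.055 and 0.057), and without replicate 2 of cop1-4 at ZT0 they stood at -0.11 and -0.13. Both calls were lost as well without replicate 3 of cop1-4 at ZT0 and without replicate 1 or 2 of cop1-4 at ZT6, and that of PSBO1 without replicate 3 at ZT6. The daytime change of all 7 green-tissue genes was lower in cop1-4 than in Col-0 by the same term (median -0.70), and their part was not tested.

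**Figure D3:**
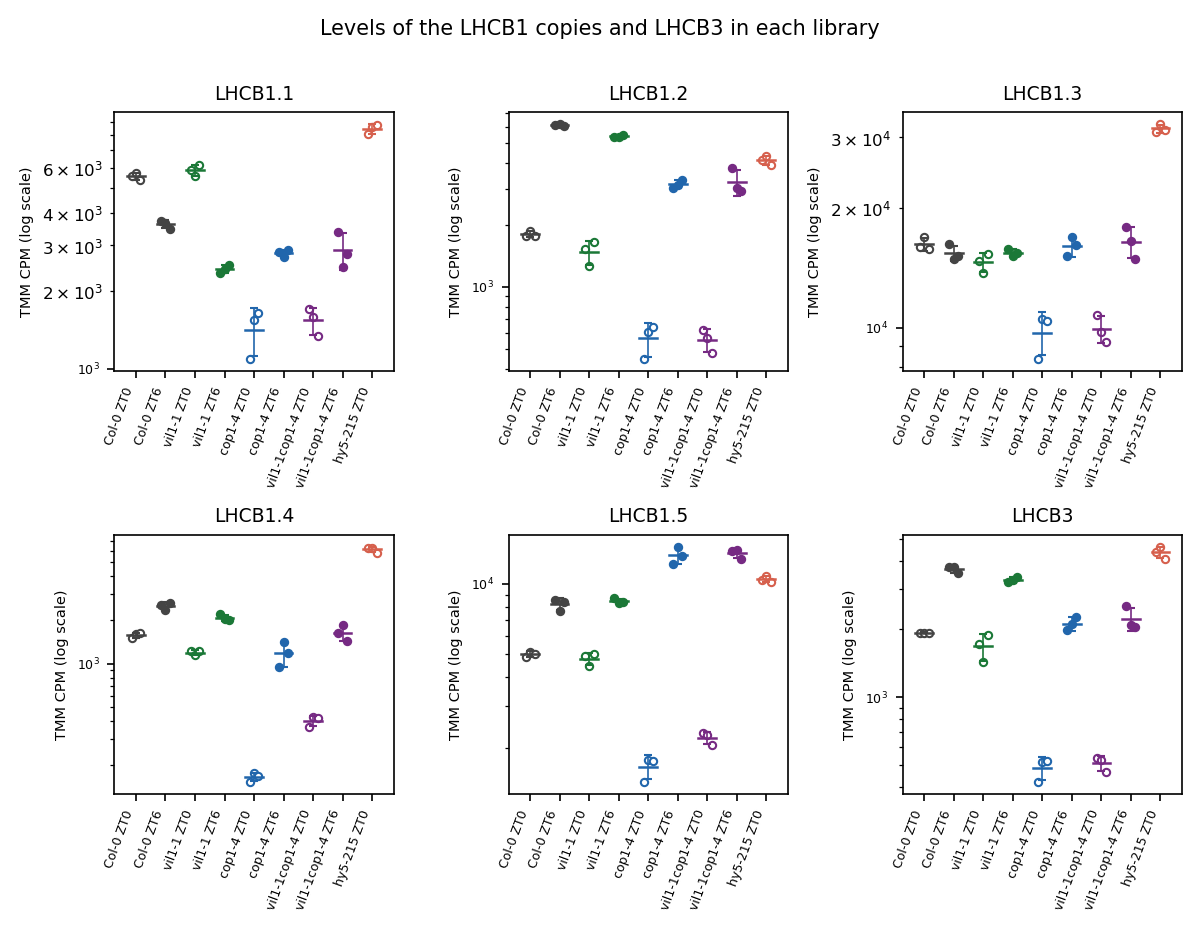
CPM (log scale, with its own range in each panel) of the LHCB1 copies and LHCB3 in each library. Points are libraries, open at ZT0 and filled at ZT6, with the mean and SD (n = 3) of each group; LHCB1.4 in cop1-4 at ZT0 spans 153 to 175 CPM and LHCB1.5 in cop1-4 at ZT6 spans 12200 to 14400.

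**Figure D4:**
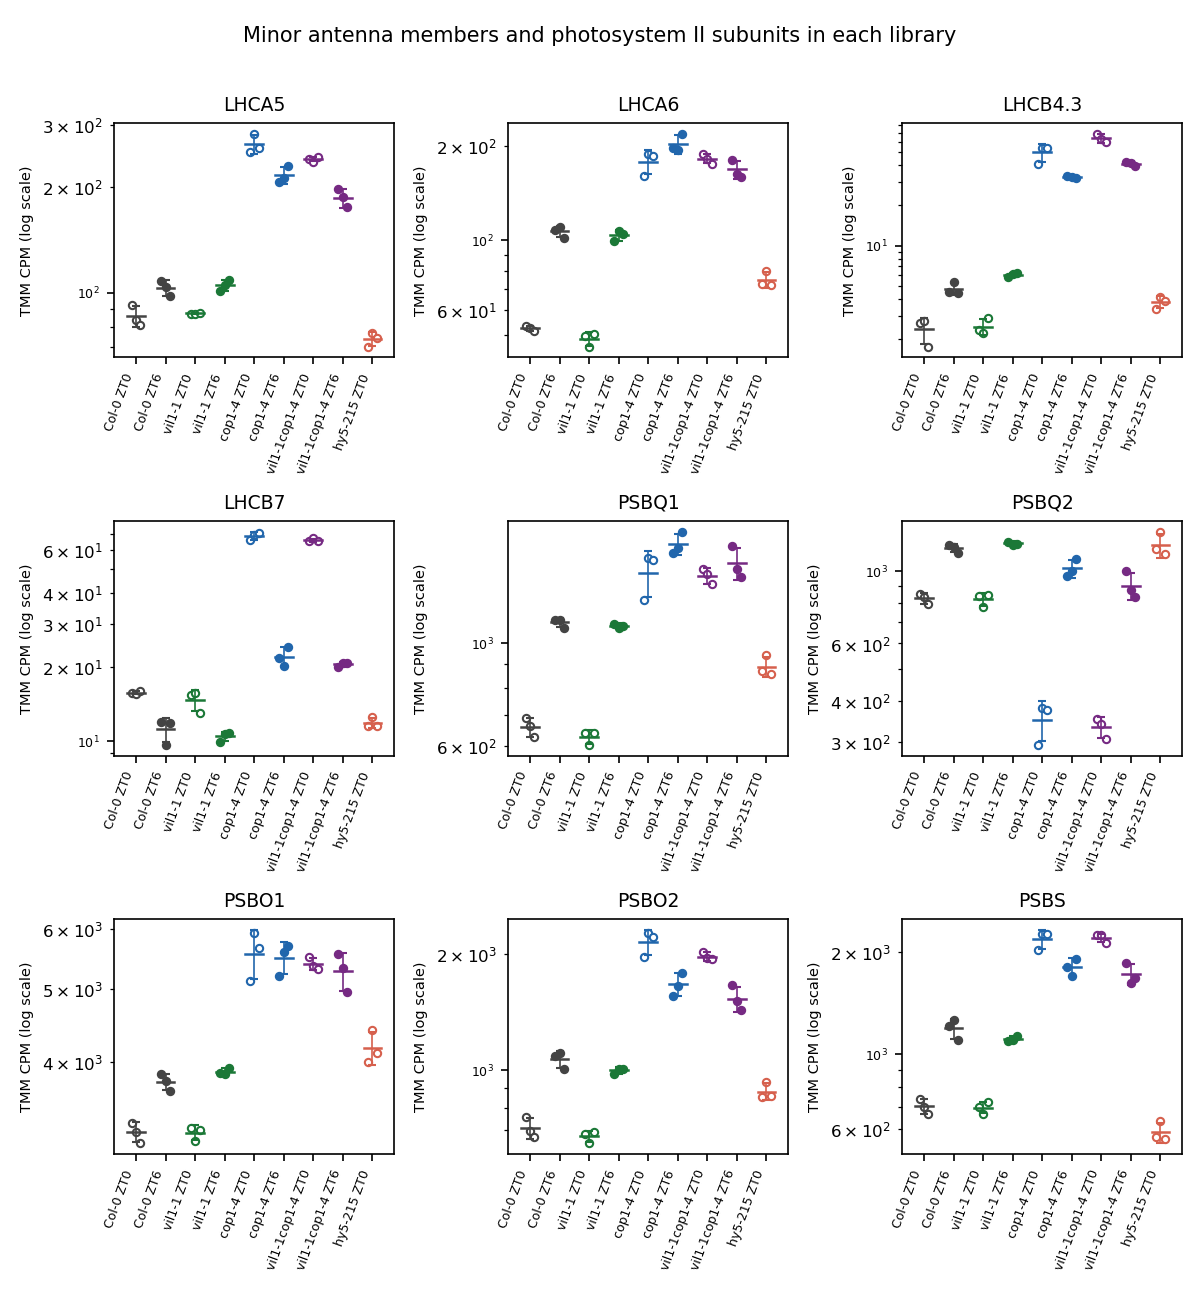
CPM (log scale, with its own range in each panel) of 4 rare antenna genes and 5 photosystem II subunits, drawn in the same way. PSBQ1 and PSBQ2 lie on opposite sides of Col-0 in cop1-4 at ZT0, at 1240 to 1530 and 293 to 380 CPM, and LHCB4.3 spans 41.2 to 54.3 CPM there against 1.75 to 2.71 in Col-0.

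Ratios of summed CPM within a library do not depend on the scaling. The LHCB sum over the photosystem II sum was 3.7, 3.98 and 3.98 in Col-0 at ZT0 and 1.09, 1.16 and 1.17 in cop1-4, with no overlap. At ZT6 it was 3.31, 3.22 and 3.4 in Col-0 and 2.16, 2.26 and 2.1 in cop1-4, so that cop1-4 lay below Col-0 at both times and closer at ZT6. In hy5-215 it was 5.73, 5.49 and 5.68, above all other libraries. The LHCA sum over the photosystem I sum was 0.901 ± 0.0187 in Col-0 at ZT0, 0.648 ± 0.00308 in cop1-4 and 1.08 ± 0.0145 in hy5-215 (SD, n = 3). Photosystem I over photosystem II was 0.769 ± 0.00812, 0.541 ± 0.0057 and 0.91 ± 0.0061 in the same order. In reads, the 43 genes took 5.43% of reads in genes in cop1-4 at ZT0 and 14.2% in hy5-215. No test was run on these ratios.

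**Figure D5:**
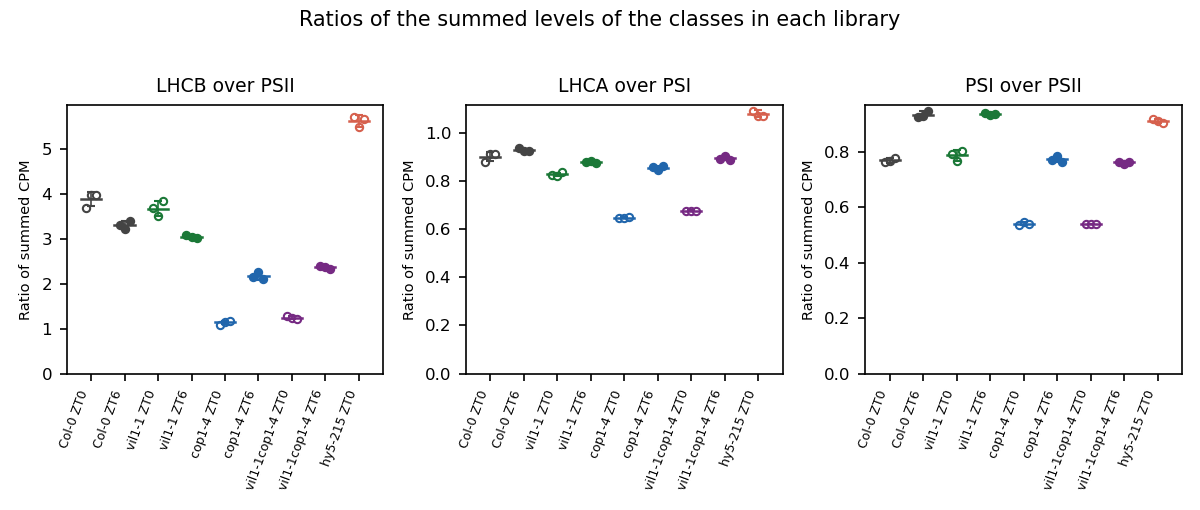
Ratios of summed CPM (linear axes from 0) of LHCB over photosystem II, LHCA over photosystem I, and photosystem I over photosystem II genes in each library. Points are libraries (open ZT0, filled ZT6) with the mean and SD of each group (n = 3); the LHCB ratio is 1.09 to 1.17 in cop1-4 at ZT0, 3.7 to 3.98 in Col-0 and 5.49 to 5.73 in hy5-215.

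In hy5-215 at ZT0 nearly the whole set was higher than in Col-0. All 43 genes were called (40 higher, 3 lower), beside 39% of all genes tested (20% higher, 19% lower; median 0). LHCB copies had 14 of 15 higher (median 0.83), LHCA genes 5 of 6 (0.72), photosystem I genes 12 of 12 (0.65) and photosystem II genes 9 of 10 (0.41). The 3 lower genes were LHCA5 (-0.22), LHCB7 (-0.41) and PSBS (-0.26).

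LHCB1.4 changed most, from 1500, 1590 and 1620 CPM in Col-0 to 6300, 6230 and 5820 in hy5-215 (log2 change 1.96, SE 0.10, adjusted p = 3.4e-13). LHCB1.3 was read at 15900, 16900 and 15800 CPM against 31000, 32400 and 31400 (0.96, SE 0.07, adjusted p = 1.1e-14), and the LHCB1 sum was 60800 ± 1380 CPM. The lines did not overlap in either gene. LHCB1.2 (1.2), LHCB3 (1.18), LHCB2.3 (1.14), LHCA1 (1.12), LHCA4 (1.06) and LHCB1.5 (1.06) were also past 2-fold. In photosystem I the largest change was that of PSAE2, a stromal subunit (0.77), and in photosystem II that of PSBX (0.69).

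PSBS was read at 568, 633 and 560 CPM in hy5-215 and LHCB7 at 11.6, 12.6 and 11.6, below all Col-0 libraries of that time. Green-tissue genes outside the set had none higher and 3 lower of 7 (median -0.09). Seed storage and embryo transcripts were higher in hy5-215 in all 3 genes tested. The cruciferin CRA1 was read at 79.1, 97.9 and 81.7 CPM against 0.149, 0.258 and 0.893 in Col-0, and SESA1 was at 0 in all Col-0 libraries. Their part, and that of the larger share of reads outside genes, was not tested. With scaling by total reads the median of all genes moved by -0.14 and no called gene changed sign.

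In vil1-1 the share of these genes called in the main fit was not above that of all genes at either time. The counts are small and are not read as a result about the set. At ZT0 2 of the 43 were called, both lower, beside 9.97% of all genes tested (5.19% higher, 4.78% lower). With the compared groups alone in the fit 5 were called, and the share of all genes called in that fit is not given here. LHCB1.4 was read at 1220, 1140 and 1220 CPM in vil1-1 against 1500, 1590 and 1620 in Col-0 (log2 change -0.40, SE 0.10, adjusted p = 0.010). LHCA4 was read at 2170, 1920 and 2250 CPM against 2550, 2550 and 2440 (-0.25, SE 0.07, adjusted p = 0.013). Both genes lay below all Col-0 libraries, yet leaving out replicate 2 of vil1-1 ended both calls (adjusted p = 0.057 and 0.14). Without replicate 1 or 2 of Col-0 LHCA4 gave adjusted p = 0.050 and 0.056.

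At ZT6 7 of the 43 were called in vil1-1 (1 higher, 6 lower), beside 21% of all genes tested (10.4% higher, 10.6% lower), and 6 of the 7 were antenna genes. With the compared groups alone in the fit 17 were called, without a share of all genes from that fit to set beside it. LHCB2.3 was read at 192, 177 and 193 CPM against 344, 377 and 354 in Col-0 (log2 change -0.93, SE 0.14, adjusted p = 4.5e-05). LHCB1.1 was read at 2350, 2430 and 2530 CPM against 3720, 3670 and 3470 (-0.57, SE 0.12, adjusted p = 0.0013). These genes separated the lines, and their calls held without each library in turn. LHCB2.2 (-0.35), LHCB1.4 (-0.28), LHCB4.2 (-0.22), PSAD1 (-0.18) and LHCB4.3 (0.36) each lost their call when 1 of several single libraries was left out, with adjusted p up to 0.16. No photosystem II gene was called at either time. The daytime change differed between vil1-1 and Col-0 in 1 of the 43, LHCB1.1 (-0.65, SE 0.17, adjusted p = 0.046), beside 2.24% of all genes tested (1.24% higher, 0.998% lower), and that call was lost in each of 12 fits without 1 library (adjusted p = 0.053 to 0.11). Within vil1-1, 42 of the 43 changed from ZT0 to ZT6 (36 higher, 6 lower), beside 68.9% of all genes tested (35.7% higher, 33.2% lower), with LHCB2.3 at -1.49 and LHCB1.1 at -1.27. Of 7 green-tissue genes 4 were lower and none higher in vil1-1 at ZT0 (median -0.18), and none was called at ZT6 (-0.05). Seed and embryo transcripts were higher in vil1-1 too, in all 3 genes tested at both times (medians 2.14 and 2.05). The part of these lists was not tested.

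The vil1-1cop1-4 line resembled cop1-4 in its class medians, with -0.71 for LHCB, 0.3 for photosystem I and 1.03 for photosystem II at ZT0 against Col-0, and -0.39, 0.19 and 0.46 at ZT6. Against Col-0 36 of the 43 were called at ZT0 (24 higher, 12 lower), beside 68.5% of all genes tested (34.8% higher, 33.8% lower). At ZT6 38 were called (24 higher, 14 lower), beside 65.6% (32.5% higher, 33.2% lower). Scaling by total reads turned the sign of 9 and 4 of those called. With it the photosystem I medians were -0.26 at ZT0 and -0.03 at ZT6, and the photosystem II medians 0.47 and 0.24. All 7 green-tissue genes were higher than in Col-0 (medians 1.69 at ZT0 and 0.96 at ZT6), and 5 of 8 root genes were lower (-0.74 and -0.77). Against cop1-4 no green-tissue gene was called, and all 3 seed and embryo genes were higher (medians 2.94 and 3.65). Their part was not tested. Against cop1-4 3 of the 43 were called at ZT0, all higher, beside 17.4% of all genes tested (9.36% higher, 8% lower), and 8 at ZT6 (2 higher, 6 lower), beside 17.8% (10.2% higher, 7.67% lower). Through the day 36 of the 43 changed in vil1-1cop1-4 (27 higher, 9 lower), beside 64.3% of all genes tested (31.7% higher, 32.6% lower), with photosystem I at a median of 0.56 and photosystem II at 0.08. With scaling by total reads these medians were 0.81 and 0.33. In the comparison with cop1-4, with those groups alone in the fit, 3 were called at ZT6, and without 1 library in turn 5 to 16. The shares of all genes called in those fits are not given here.

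LHCB1.4 was read at 366, 426 and 421 CPM in vil1-1cop1-4 at ZT0 against 153, 175 and 167 in cop1-4 (log2 change 1.29, SE 0.10, adjusted p = 5.1e-09). LHCB1.5 was read at 2300, 2260 and 2060 CPM against 1430, 1780 and 1760 (0.41, SE 0.07, adjusted p = 1.4e-05), and LHCB4.3 at 68.8, 62.8 and 59.8 against 41.2, 54.1 and 54.3 (0.35, SE 0.08, adjusted p = 0.0015). In all 3 genes every double mutant library lay above every cop1-4 library. LHCB1.4 thus went up with vil1-1 in the cop1-4 background and down with vil1-1 alone. The test of that difference, added after these values were seen, gave 1.69 (SE 0.14, adjusted p = 5.5e-08) at ZT0 and 0.75 (SE 0.14, adjusted p = 0.00086) at ZT6. It called 3 of the 43 at ZT0, all positive, beside 7.11% of all genes tested (4.21% higher, 2.9% lower), with LHCB1.5 (0.47, SE 0.10, adjusted p = 0.00087) and LHCA4 (0.31, SE 0.10, adjusted p = 0.047), and the LHCA4 call was lost without most of the single libraries left out in turn (adjusted p = 0.054 to 0.20). At ZT6 it called 6 (3 higher, 3 lower), beside 15.3% (8.76% higher, 6.5% lower), among them LHCB2.3 (0.92, SE 0.19, adjusted p = 0.0029) and LHCB1.1 (0.61, SE 0.17, adjusted p = 0.017). LHCB1.1 was not called without replicate 1 of vil1-1cop1-4 at ZT6 (0.45, adjusted p = 0.065).

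Other genes of the thylakoid pathway were tested in the same fit. In cop1-4 at ZT0 68.5% of all genes tested were called (34.7% higher, 33.9% lower). In cop1-4 at ZT0 9 of 10 genes for electron carriers and ATP synthase were higher and 1 lower (median 1.64). LFNR1, a ferredoxin reductase, led with 2.06, and the plastocyanin gene PETE1 was lower (-0.22). All 5 genes for import and insertion of antenna proteins were higher (median 1.06), with CPSRP54 of the chloroplast signal recognition particle at 1.17. The antenna kinase genes STN7 (1.19) and STN8 (0.92) and the phosphatase gene TAP38 (0.76) were higher too.

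Of 7 regulators of photosystem genes 6 were higher and 1 lower in cop1-4 at ZT0, beside 34.7% and 33.9% of all genes tested. The sigma factor SIG5 was at 2.14 and GLK1, a transcription factor that drives antenna genes, at -0.61. At ZT6 4 were higher and 3 lower, beside 32.6% and 34% of all genes tested. The lower ones were GLK1 (-1.54), its paralog GLK2 (-0.63) and GUN4 (-1.01), a chlorophyll synthesis regulator. Of 7 other photosystem factors 6 were higher at both times, and PSBP2, a PSBP relative, was lower (-1.56 and -1.39). In hy5-215 the electron carriers had 7 of 10 higher (median 0.26), the import genes 1 of 5 (0.04), and the kinases and phosphatase were all 3 lower (-0.3). Of all genes tested there 20% were higher and 19% lower.

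Counts of near-identical copies carry an uncertainty of their own. Of the 43 transcripts 35 shared no stretch of 75 bases with another gene. The share of such stretches was 3.66 to 10.4% in the LHCB1 copies, 15.3% in LHCB2.1 and 19.1% in LHCB2.2, and 3.07% in LHCA2. With LHCB1.1 to LHCB1.3, LHCB1.4 with LHCB1.5, and LHCB2.1 with LHCB2.2 each summed before the fit, the log2 changes in cop1-4 at ZT0 were -1.01, -1.85 and -0.39 (adjusted p = 1.3e-15, 5.5e-26 and 0.00019). At ZT6 they were -0.19, 0.43 and -0.84 (adjusted p = 0.02, 3.7e-07 and 1e-09). The vil1-1 by cop1-4 difference of the LHCB1.4 and LHCB1.5 sum was 0.65 at ZT0 (adjusted p = 6.8e-06) and 0.10 at ZT6 (adjusted p = 0.55). Of the 43 genes 16 overlapped another annotated gene, 2 of them, PSAD2 and PSBP1, on the same strand. The sources used here do not give whether strand was used in counting.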

How the data were processed

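RNA-seq of 27 libraries was analysed from the deposited tables, which hold the authors' raw read counts per gene without normalisation. The submitters' processing notes name FastQC, STAR, edgeR and the TAIR10 genome, and versions are not given in the sources used here. The 5 lines naming no gene (3.8 to 9.2% of reads) stayed out of library sizes and tests. The filter was edgeR's filterByExpr with the 9 groups (minimum count 10), sizes were scaled by TMM, and a robust quasi-likelihood model with 1 coefficient per group (18 residual degrees of freedom) was fitted to 21448 genes with edgeR 4.0.16 and limma 3.58.1 in R 4.3.3. Adjusted p-values are Benjamini-Hochberg over all genes of a contrast, called under 0.05. The method was tested on simulated counts with few changed genes, balanced in direction, which does not test the scaling between lines. Replicates differed by more than sampling noise. DESeq2 1.42.0, other scalings, filters, sample sets, summed copies, a replicate block and leaving out each library were alternatives. Gene models and sequences came from RefSeq's TAIR10.1, in which all 43 loci were found. The members, gene lists and rules were chosen with earlier results of these data known. All 43 genes could be named, with full values first for the largest change in each class and direction, for genes against their class, and for the LHCB1, LHCB2 and rare antenna copies.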

Additional observations from a re-analysis of the deposited data

Results flagged for a closer look

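The change from ZT0 to ZT6 differed between cop1-4 and Col-0 by the interaction term of the edgeR fit in 30 genes. Of all genes tested 46.6% were called by that term. Antenna genes with a higher value in cop1-4 were LHCB1.5 (2.29), LHCB1.4 (2.17), LHCB1.1 (1.59), LHCB3 (1.18), LHCB1.3 (0.80), LHCB1.2 (0.72), LHCA4 (0.71), LHCB4.2 (0.52), LHCA2 (0.26) and LHCB6 (0.26). Antenna genes with a lower value were LHCB4.3 (-1.61), LHCB7 (-1.14), LHCB2.3 (-0.97), LHCA6 (-0.84), LHCA5 (-0.56) and LHCB2.1 (-0.52). In photosystem I, PSAE2 was higher (0.41), and PSAD1 (-0.54), PSAD2 (-0.41), PSAN (-0.39) and PSAL (-0.28) were lower. In photosystem II, PSBQ2 was higher (1.03), and PSBS (-1.04), PSBO2 (-0.96), PSBX (-0.83), PSBY (-0.61), PSBQ1 (-0.54), PSBW (-0.40), PSBP1 (-0.27) and PSBO1 (-0.24) were lower, the last pair without a call under RLE size factors, under DESeq2 or without single cop1-4 libraries (-0.13 and -0.11 without replicate 2 at ZT0).

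The daytime change differed between vil1-1 and Col-0 in 1 gene, LHCB1.1 (-0.65), beside 2.24% of all genes tested. That call was lost in each of 12 fits without 1 library and with the replicate block.

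By a test added after the values were seen, the effect of vil1-1 differed between the cop1-4 and Col-0 backgrounds in 3 genes at ZT0. They were LHCB1.4 (1.69), LHCB1.5 (0.47) and LHCA4 (0.31), beside 7.11% of all genes tested. The LHCA4 call was lost without most of the single libraries left out in turn. At ZT6 the effect differed in 6 genes, LHCB2.3 (0.92), LHCB1.4 (0.75), LHCB1.1 (0.61), LHCA5 (-0.23), PSAE2 (-0.29) and PSAN (-0.32). Of all genes tested 15.3% were called there, so neither count stood above the background.

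Reads outside genes made up at least 2.16% of each hy5-215 library, above every Col-0 library.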

How the results depend on the processing

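The counts of the 43 genes called in the larger comparisons held within 1.5 times under every alternative run. With so many of the 43 called, they could not rise past that bound, and they take no account of direction. In cop1-4 at ZT0, 10 called genes changed sign with scaling by total reads. Leaving out each library in turn gave 41 to 41 for Col-0 through the day, 34 to 39 and 35 to 37 for cop1-4 at ZT0 and ZT6, 28 to 30 for cop1-4 by time and 43 to 43 for hy5-215. Small counts moved. For vil1-1 at ZT0 (2) it was 1 with copies summed, 5 with the compared groups alone, and 0 to 3 without single libraries. With copies summed, LHCB1.4 stood only in its sum with LHCB1.5, which was not called by edgeR (-0.13, adjusted p = 0.23). For vil1-1 at ZT6 (7) it was 11 with scaling by total reads, 17 with the compared groups alone, and 2 to 5 without single libraries. For vil1-1 by time (1) it was 2 with DESeq2, 0 without the filter, without hy5-215, with copies summed and with the replicate block, 2 with total reads, 4 with the compared groups alone, and 0 to 1 without single libraries. With copies summed, LHCB1.1 stood only in the sum of LHCB1.1 to LHCB1.3 (-0.01, not called). For vil1-1cop1-4 against cop1-4 it was 3 to 6 at ZT0 (3) without single libraries, and at ZT6 (8) 3 with the compared groups alone and 5 to 16 without single libraries. For vil1-1 by cop1-4 it was 2 to 3 at ZT0 (3) without single libraries, and at ZT6 (6) 10 with total reads and 4 to 10 without single libraries. The cause of the other moves was not tested. Shares of all genes called in these alternative fits are not given here, so their counts cannot be set against a background.

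Scaling by total reads, added after seeing the data, reversed these log2 values, mostly of small changes. Through the day in cop1-4 they were LHCB4.2 (0.06), PSBO1 (0.22) and PSBY (0.21; under TMM it was not called at -0.04 and ran from -0.06 to 0.15 without single libraries, reversed without replicate 2 of cop1-4 at ZT0), and in vil1-1cop1-4 LHCA6 (0.13), LHCB4.2 (0.07), PSAN (0.21), PSBO1 (0.22) and PSBR (0.22). For cop1-4 at ZT0 they were LHCA2 (-0.49), LHCA3 (-0.36), LHCB4.1 (-0.03), LHCB5 (-0.47), PSAD1 (-0.16), PSAD2 (-0.45), PSAE1 (-0.28), PSAE2 (-0.41), PSAF (-0.15), PSAH1 (-0.11), PSAH2 (-0.51), PSAK (-0.03), PSAO (-0.33) and PSBP1 (-0.02), and at ZT6 LHCA3 (-0.05), LHCA4 (-0.21), LHCB1.3 (-0.19), LHCB5 (-0.22) and PSAG (-0.07). For vil1-1cop1-4 at ZT0 they were LHCA1 (-0.56), LHCA2 (-0.42), LHCA3 (-0.37), LHCB2.1 (-0.55), LHCB5 (-0.45), PSAD1 (-0.20), PSAD2 (-0.41), PSAE1 (-0.32), PSAE2 (-0.45), PSAF (-0.12), PSAH1 (-0.23), PSAK (-0.11), PSAO (-0.29) and PSBP1 (-0.05), and at ZT6 LHCA3 (-0.05), LHCA4 (-0.18), PSAE1 (-0.04), PSAF (-0.02) and PSBP1 (-0.05). For cop1-4 by time they were LHCA1 (0.32), LHCA3 (0.31), LHCB4.1 (0.17), LHCB5 (0.24), PSAE1 (0.30), PSAF (0.15), PSAH2 (0.25), PSAK (0.27), PSAL (0.05), PSAO (0.33), PSBO1 (0.10) and PSBP1 (0.06).

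Over all genes kept, same-numbered libraries did not deviate together (correlations -0.07 to 0.08), which gave no sign of pairing. A factor shared by few genes could be missed this way. The replicate block changed 4 of 731 gene results: PSAD1 in vil1-1 at ZT6 (adjusted p = 0.053), PSAK in vil1-1cop1-4 against cop1-4 at ZT6 (0.055), LHCB1.1 by time in vil1-1 (0.065) and LHCA4 by cop1-4 at ZT0 (0.064) lost their edgeR call. DESeq2 moved 18 of 731 across the threshold, 9 each way. With 180 reads over 3 libraries, LHCB4.3 in Col-0 at ZT0 has the least depth of the 43.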
